A study of Homo sapiens with 2 samples.

Results

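Histone messenger RNA was compared between 2 substates of the human embryonic stem cell line H9 on single-colour Agilent expression arrays. Probes were matched to genes through the RefSeq accession that the array design gives. The histone genes were protein-coding genes chosen by symbol, and histone genes with other symbols were not included. Those chosen had symbols starting H1-, H2AC, H2BC, H3C or H4C, or were H2AX, H2AZ1, H2AZ2, H2AJ, H3-3A, H3-3B, H3-5, MACROH2A1 or MACROH2A2. Of 83 such genes in the table of gene names, 77 had a matched probe, among 22439 genes with a matched probe on the whole array. They were split into 65 clustered replication-dependent genes with 74 probes and 12 variant or replacement genes with 16 probes. No matched probe was found for H2AC18, H2BC12L, H2BC18, H3-3B, H3C14 and H4C14. An antisense RNA (H1-10-AS1) and 2 transcribed pseudogenes (H1-9P and H2AC2P), with 5 probes in all, were left out.

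Both cultures were H9 cells grown on Matrigel in the serum-free medium TeSR-E8, without other treatment named in the labels. The substate 1 cells were at passage 35 and the substate 2 cells at passage 50, so substate and passage cannot be told apart. The study named the substates by colony form and by surface staining, with strong R-10G epitope and no vimentin in substate 1, and weak R-10G epitope with vimentin in substate 2. It found both kinds of colony on Matrigel, and sorted cells of each substate gave rise to both. How pure each substate was on its array is not known here. Each substate had 1 array, so no difference has a replicate check, no test between the substates was possible, and the number of arrays limits the precision.

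Clustered histone genes lie in dense groups, above all on the short arm of chromosome 6, and supply the histones that package newly copied DNA. They are transcribed mainly in S phase, lack introns, and their messenger RNAs normally end in a stem-loop bound by SLBP in place of a poly(A) tail. Variant histones are encoded by solitary genes, most with ordinary polyadenylated messenger RNAs, and are made throughout the cell cycle for deposition that need not be tied to replication. The labelling kit named in the labels starts its reaction from poly(A) tails, so the signal of a clustered gene depends on how much of its messenger RNA carries such a tail or is primed elsewhere. Which of these the arrays read was not tested.

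Clustered genes carry short promoter elements known for their families, and 6 promoters are shown because the results below turn on these genes or because they hold the element typical of their family. They are the 250 bases before the start site in the gene's 5′ to 3′ direction, from RefSeq on GRCh38.p14, at chr6:26017788-26018037 (- strand) for H1-1, chr6:26056471-26056720 (- strand) for H1-2, chr6:26156079-26156328 (+ strand) for H1-4, chr6:27814772-27815021 (+ strand) for H2BC14, chr6:26204360-26204609 (+ strand) for H4C5 and chr10:70052596-70052845 (+ strand) for MACROH2A2. Capitals mark TATAAA (the TATA box), CCAAT, ATTTGCAT (the octamer of H2A and H2B promoters, bound by POU2F1), AAACACA (the H1 box) and GGTCC (part of the H4 element bound by HINFP), or the same letters on the opposite strand.
H1-1: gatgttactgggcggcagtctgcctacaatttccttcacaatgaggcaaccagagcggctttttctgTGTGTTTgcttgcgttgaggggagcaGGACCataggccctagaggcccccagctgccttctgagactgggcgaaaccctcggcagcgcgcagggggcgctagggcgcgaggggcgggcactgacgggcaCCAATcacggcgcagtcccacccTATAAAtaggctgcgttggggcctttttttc
H1-2: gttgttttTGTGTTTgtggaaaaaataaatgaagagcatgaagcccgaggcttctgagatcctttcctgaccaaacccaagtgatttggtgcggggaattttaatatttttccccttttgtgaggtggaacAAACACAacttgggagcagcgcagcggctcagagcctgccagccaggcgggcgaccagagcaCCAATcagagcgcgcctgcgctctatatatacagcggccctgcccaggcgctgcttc
H1-4: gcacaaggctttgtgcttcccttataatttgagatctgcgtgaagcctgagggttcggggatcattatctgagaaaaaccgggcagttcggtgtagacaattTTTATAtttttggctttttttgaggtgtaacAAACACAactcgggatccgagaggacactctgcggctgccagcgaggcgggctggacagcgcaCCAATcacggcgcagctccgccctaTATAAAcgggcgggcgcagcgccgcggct
H2BC14: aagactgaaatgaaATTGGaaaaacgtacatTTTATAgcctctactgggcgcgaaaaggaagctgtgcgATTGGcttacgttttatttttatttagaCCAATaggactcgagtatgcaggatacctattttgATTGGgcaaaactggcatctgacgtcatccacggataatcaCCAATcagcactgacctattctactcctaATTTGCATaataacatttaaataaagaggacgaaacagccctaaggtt
H4C5: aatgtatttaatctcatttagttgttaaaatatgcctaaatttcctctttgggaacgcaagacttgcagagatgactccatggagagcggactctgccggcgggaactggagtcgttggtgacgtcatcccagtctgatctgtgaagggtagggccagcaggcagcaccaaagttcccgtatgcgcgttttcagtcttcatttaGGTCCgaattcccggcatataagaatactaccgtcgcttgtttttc
MACROH2A2: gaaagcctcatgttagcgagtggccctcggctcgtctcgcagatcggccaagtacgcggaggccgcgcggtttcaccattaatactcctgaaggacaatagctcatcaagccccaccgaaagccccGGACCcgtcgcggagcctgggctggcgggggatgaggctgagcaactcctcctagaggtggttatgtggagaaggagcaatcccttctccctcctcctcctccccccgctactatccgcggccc

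Of the 77 genes, 70 were in the promoter table, and 7 were not matched, among them H2AC12, H3-5, H3C11, H3C12, H4C1 and H4C3. TATAAA was found on either strand in 40 of 60 clustered promoters and 3 of 10 variant promoters, against 11.1% of 27305 promoters of the same length. CCAAT was found in 51 clustered and 7 variant promoters, against 33.0% of all. The octamer was found in 11 of 15 H2A and 13 of 17 H2B promoters of the clustered class and in 1 other clustered promoter, that of H3C4, whose first listed transcript begins at the start of H2AC7, against 1.66% of all and 0 of 10 variants. AAACACA was found in 6 of 6 clustered H1 promoters, 1 variant promoter and 4.95% of all. GGTCC, a short word held by 40.4% of all promoters, was found in 11 of 12 clustered H4 promoters. On the gene's own strand AAACACA lay 119 bases before the start of H1-2 and of H1-3, 117 bases before that of H1-4, 117 bases before that of H1-5 and 105 bases before that of H1-6. The H1-1 promoter held it on the opposite strand alone, 183 bases before the start. These matches describe letters in a window and not sites of binding.

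Each value is the log2 of a probe's processed intensity minus that array's 75th percentile, written here as its level, and differences are substate 2 minus substate 1. The 75th percentile was an intensity of 313.7 in substate 1 and 275.4 in substate 2, and the shift between them was 0.19 on the log2 scale. Spots of a repeated probe had a median SD of 0.05 on each array, over 293 and 291 probes with spots well above background. This gives a typical SD of 0.07 for the difference of a single spot, and each histone probe was a single spot. That error covers printing and hybridisation within an array, not the cells or the labelling. Of the 90 histone probes, 85 (94.4%) lay well above background on both arrays, against 51.3% of all 58201 probes, and none was saturated. The 5 pluripotency markers POU5F1, NANOG, SOX2, LIN28A and DPPA4 were all well above background on both arrays, with differences of 0.07 to 0.42. VIM, which encodes vimentin, was at 3.16 and 5.68, and CDH1, which encodes E-cadherin, was at 4.91 and 3.44.

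Nearly all clustered histone genes were modestly higher in substate 2, by closely similar amounts. Of 63 clustered genes measured on both arrays, 61 were higher in substate 2 and 2 were lower, where 59.8% of all 16001 measured genes were higher (36.9% with no scaling between the arrays, under which the clustered counts were the same). Their median difference was 0.54 (1.46-fold) against 0.08 over all genes. A difference of at least 0.5 was reached by 42 of the 63, against 7.13% of all genes, and 57 of them lay above the upper quartile of all genes, 0.28. The middle 50% of clustered genes spanned 0.46 to 0.59, a width of 0.13, where that of all genes spanned -0.16 to 0.28. Within 0.1 of their own median lay 39 of the 63 clustered genes (61.9%), and 23.8% of all genes lay as close to the median of all genes. Because clustered genes are near copies of each other, a probe can bind the messenger RNA of several, so neither the probes nor the genes are independent readings.

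All 11 measured variant genes were higher in substate 2, with a median difference of 0.39 (1.31-fold). Their quartiles were 0.32 and 0.47, and 2 of the 11, H1-10 and MACROH2A2, lay above the median of the clustered genes. Among the clustered genes, 10 lay below the variant median and 53 above it. The clustered median exceeded the variant median by 0.15, and this gap ranged from 0.15 to 0.18 over 13 alternative settings. Several of these settings, such as no scaling, shift all differences by a constant and could not change the gap. The groups overlapped widely, with ranges of -1.62 to 1.01 for clustered and 0.06 to 1.07 for variant genes.

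**Figure D1:**
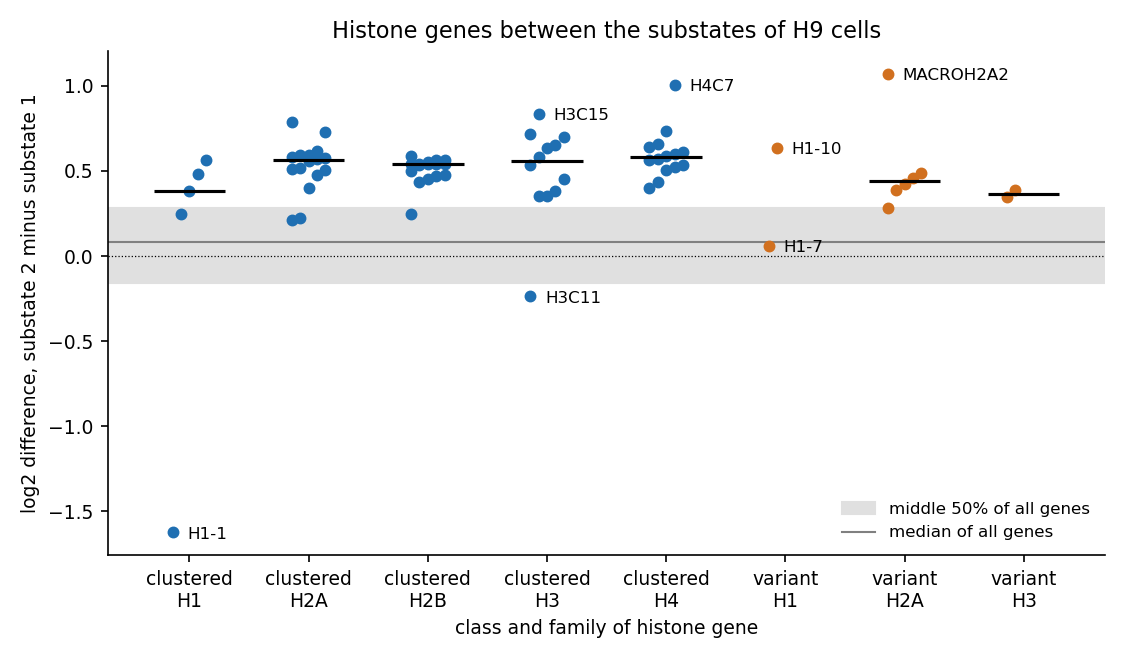
Log2 difference of the measured histone genes, apart from 1 variant gene, substate 2 minus substate 1, by class and family. Each point is a gene, bars are medians (none for variant H1), the grey band is the middle 50% of all genes (-0.16 to 0.28) and the grey line their median of 0.08. Most clustered genes sit in a narrow band near 0.54, with H1-1 at -1.62 far below, and most variant genes sit lower, apart from MACROH2A2 at 1.07.

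Differences also varied with brightness over the whole array, so the classes were set beside probes of like level. Among probes with a mean level of 4 or more, the median difference was 0.56 for 23 clustered probes, 0.39 for 9 variant probes and 0.21 for all 2985 probes. Between 0 and 4 it was 0.54 for 38 clustered probes and 0.08 for all 11562, and the 3 variant probes there had a median of 0.64. Below 0 it was 0.39 for 10 clustered probes, 0.28 for 2 variant probes and -0.02 for all 15336. In each of these ranges of level, histone probes of both classes had a higher median than all probes.

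By the rule of size in the study's methods, a Z-score of 2 over all probes, a probe had to be 2.53-fold higher or 2.29-fold lower in substate 2. No histone probe was past the upper limit, where 3.03% of all probes were, and 1 histone probe, that of H1-1, was past the lower limit, where 3.3% were. A total of 86 histone probes lay well above background on 1 or both arrays. Of these, 2 were at least 2-fold higher in substate 2, against 1.55% of all such probes, and 1 was at least 2-fold lower, against 1.67%. They belonged to MACROH2A2 and H4C7, and to H1-1. The count past the upper limit depended on the setting. It was 22 with normexp background correction, 3 with the SD of probes measured on both arrays and 2 with the median absolute deviation. The share of all probes past the limit under those settings is not given here. These counts therefore cannot be set against the whole array. In the setting reported here the common difference of the clustered genes was below both rules of size.

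**Figure D2:**
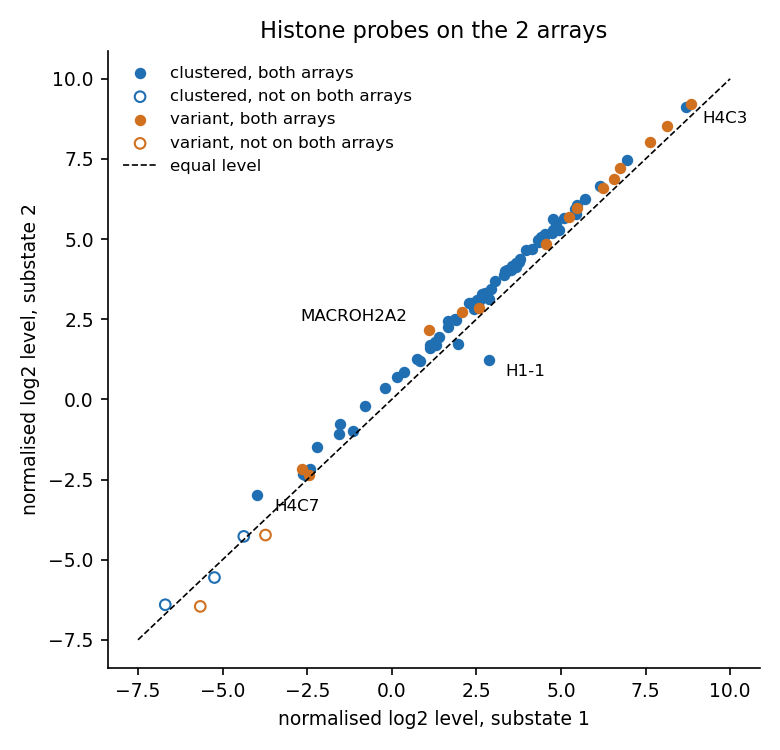
Level of each histone probe on the 2 arrays, as log2 of the processed intensity relative to the array's 75th percentile. Filled points lay well above background on both arrays, open points did not, and the dashed line marks equal levels. Most probes run just above the line over the whole range of level, H1-1 lies far below it, and MACROH2A2 and H4C7 lie above the others.

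The core histones of the nucleosome moved by similar amounts. H2A genes of the clustered class (16 measured) had a median difference of 0.56, H2B genes (16) 0.54, H3 genes (12) 0.56 and H4 genes (14) 0.58, and all of the H2A, H2B and H4 genes were higher in substate 2. The H2B genes were the most alike, with quartiles of 0.47 and 0.55, and the H3 genes the most spread of these 4 families, with quartiles of 0.38 and 0.66. The brightest clustered probe, that of H4C3, was at a level of 8.69 in substate 1 and 9.13 in substate 2. Its difference of 0.44 was somewhat below the median of its family.

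The clustered linker histones, which bind the DNA between nucleosomes, held the exception. H1-1 was at a level of 2.86 in substate 1 and 1.24 in substate 2, from intensities of 2279 and 648.7. It was 3.08-fold lower in substate 2 (difference -1.62, Z-score -2.68), and 22 of all 16001 measured genes had a lower difference. The other linker genes of the cluster were higher in substate 2. H1-2 was at 4.34 and 4.90, a difference of 0.56. H1-3 was at 2.87 and 3.12, a difference of 0.25, and H1-4 at 3.66 and 4.14, a difference of 0.48. H1-5 was at 2.54 and 2.93, a difference of 0.38. The H1-1 probe was read from 1 spot and no second probe measured the gene. H1-6, a testis linker histone, was not well above background on either array, with intensities of 8.29 and 5.85.

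H3C11 was the only other clustered gene that was lower in substate 2. It was at 1.97 and 1.73, a difference of -0.24, read by a single probe, while its neighbours in gene order, H1-5 and H4C13, had differences of 0.38 and 0.54.

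The highest clustered differences came from the H4, H3 and H2A families. H4C7, which encodes a divergent form of H4, was at -3.97 and -2.97, a difference of 1.01, but from intensities of 19.9 and 35.2 close to background. H3C15 was at 4.77 and 5.61, a difference of 0.84, from bright spots. It has a near-identical duplicate, H3C14, for which no probe was matched, so the value may belong to either copy. H2AC11 was at 1.65 and 2.44, a difference of 0.79, and H2AC8 at 2.28 and 3.01, a difference of 0.73. H4C16, the H4 gene of chromosome 12, was at -2.21 and -1.48, a difference of 0.73. H2AC11, H2AC8 and H4C16 encode standard core histones. H3C10 was at 0.41 and 1.13 by the mean of its probes, a difference of 0.72, H3C2 at 3.97 and 4.67, a difference of 0.70, and H4C5 at 4.42 and 5.07, a difference of 0.66.

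At the lower end, several genes were dim. H2AC25 was at -2.56 and -2.35, a difference of 0.21, H2AC1, a testis form of H2A, at -2.51 and -2.29, a difference of 0.22, and H2BC21 at -2.42 and -2.18, a difference of 0.24. The H3 genes at this end were bright. H3C1 was at 5.44 and 5.79, a difference of 0.35, and H3C6 at 4.94 and 5.30, a difference of 0.36. H2BC1, a testis form of H2B, and a further probe of H2BC21 were not well above background on either array.

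Of 10 histone genes measured by more than 1 probe, the median range between probes of a gene was 0.09, against 0.18 over 4236 such genes. The widest was that of H4C1, whose dim probe differed by 0.15 and whose brighter probe differed by 0.65. The 6 clustered genes known also to give polyadenylated messenger RNA had a median difference of 0.49, and the other 57 had 0.54. Of the 6, H1-2 and H2BC21 are given above, H2BC5 was at 1.89 and 2.48, a difference of 0.59, and H2BC4 at 1.29 and 1.79, a difference of 0.50. The probes of H2AC6 differed by 0.32 and 0.64, and those of H2BC12 by 0.38 and 0.50. The range of the 6 genes was 0.24 to 0.59. That of the other 57, -1.62 to 1.01, was set by H1-1 and H4C7, so lying within it shows little. The quartiles were 0.45 and 0.55 for the 6 genes and 0.47 and 0.60 for the other 57.

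Most differences in the chromosome 6 cluster lay near its median, with 33 of 53 genes within 0.1 of it. Its 53 measured genes had a median difference of 0.54 and the 9 of chromosome 1 had 0.58. H1-1 lay between H2AC1 (0.22) and H3C1 (0.35), which were among the lowest positive differences, and H4C7 lay between H4C6 (0.57) and H3C7 (0.65). In 10 pairs of neighbours the start sites lay within 500 bases of each other on opposite strands, so that the genes share the sequence between them, and all 10 joined an H2A with an H2B gene. The gap between the differences of paired genes had a median of 0.04 and ranged from 0.0034 to 0.34. H2AC14 and H2BC14 had differences of 0.56 and 0.56, whereas H2BC11 and H2AC11 had 0.46 and 0.79. The narrow spread of all clustered genes limits what this closeness within pairs shows.

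**Figure D3:**
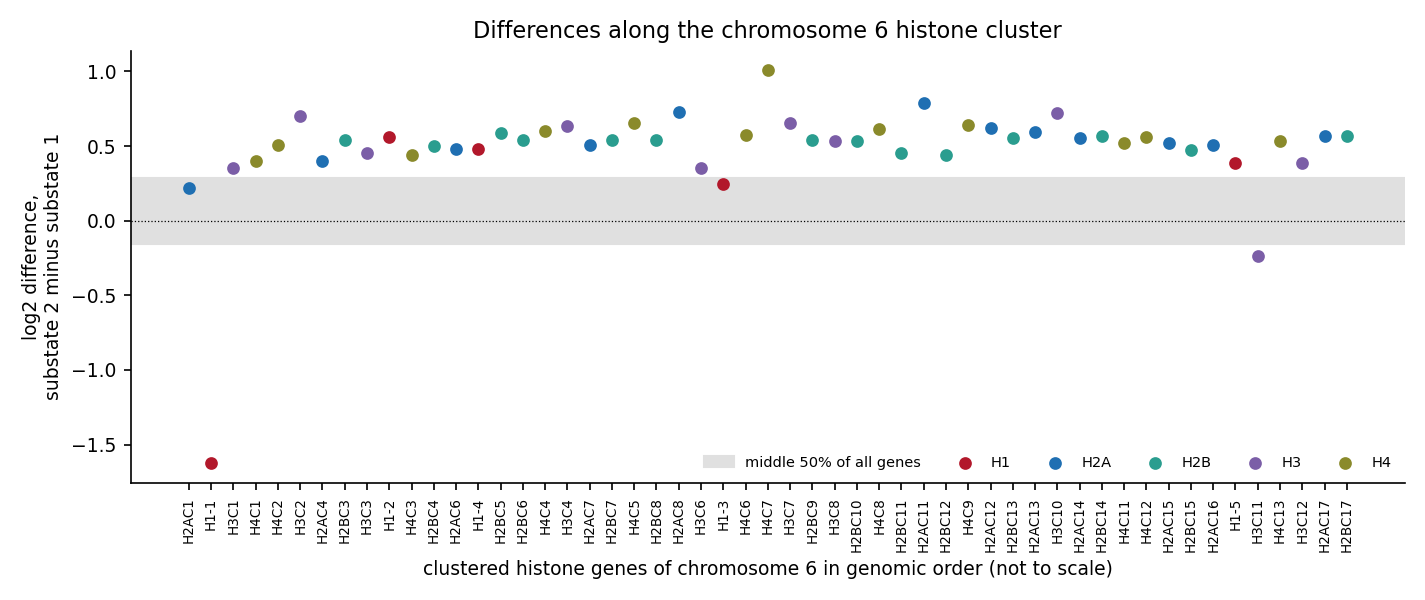
Log2 difference, substate 2 minus substate 1, of the 53 measured clustered genes of chromosome 6, in genomic order and coloured by family. The x axis gives order, not distance, and the grey band is the middle 50% of all genes. Most but not all points lie near 0.54, and H1-1 (-1.62) and H3C11 (-0.24) are single genes between neighbours that were higher in substate 2.

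Among the variant genes, MACROH2A2 stood apart. It encodes a large H2A form with a macrodomain that is enriched on silent chromatin, including the inactive X chromosome. It was at a level of 1.11 in substate 1 and 2.18 in substate 2, from intensities of 675.8 and 1247, and was 2.10-fold higher in substate 2 (difference 1.07). Of all measured genes, 115 had a higher difference. Its relative MACROH2A1 was at 5.47 and 5.95, a difference of 0.49. That lies between the lower quartile (0.46) and the median (0.54) of the clustered genes. The Z-score of the MACROH2A2 probe did not reach 2.

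The other H2A variants lay between 0.28 and 0.46. H2AZ1 was at 6.76 and 7.22, a difference of 0.46, and H2AZ2, which encodes the near-identical second form of H2A.Z at gene starts, had probes that differed by 0.28 and 0.49. H2AX, whose protein is phosphorylated at DNA breaks and whose messenger RNA occurs both with a stem-loop and with a poly(A) tail, was at 5.25 and 5.68, a difference of 0.42. H2AJ was at 4.57 and 4.85, a difference of 0.28, by its bright probe. Its dim probe was well above background in substate 1 alone, with intensities of 23.6 and 14.7, so the brighter probe is the firmer reading.

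The replacement histone H3.3, laid down outside replication, was read through H3-3A, since no probe was matched to H3-3B. The 3 probes of H3-3A differed by 0.37, 0.39 and 0.40, and their mean level was 8.20 in substate 1 and 8.59 in substate 2. H3-5, a testis gene derived from an H3.3 copy, was at 6.24 and 6.59, a difference of 0.35. Its probe may also bind H3.3 messenger RNA, so the level cannot be ascribed to H3-5 alone. The H3.3 readings were thus alike and below the clustered median.

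The linker variants differed widely. H1-10 was at 2.08 and 2.72, a difference of 0.64. H1-7, a spermatid form, was at -2.43 and -2.37, a difference of 0.06. That is below the typical spot SD of 0.07, which need not hold for so dim a probe. H1-8, the oocyte form, was not well above background on either array, with intensities of 6.20 and 3.13.

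The lists of genes that make, carry and use histones had median differences below that of the clustered histones, all positive except that of stem-loop processing with no scaling (-0.0315). The lists were set beside all genes and not beside genes of like level. The median difference of all probes rose with level, to 0.21 at a level of 4 or more. The 32 measured of 33 S phase genes had a median difference of 0.36. Of the 32, 31 were higher in substate 2 (26 with no scaling), against 59.8% of all genes (36.9% with no scaling). UHRF1, which keeps DNA methylation through replication, was at 1.31 and 2.35, a difference of 1.04, and TYMS, thymidylate synthase, at 5.35 and 6.05, a difference of 0.69. The lowest were the DNA polymerase genes POLE (-0.10, with probes of opposite direction) and POLD1 (0.09). Most S phase genes thus differed in the same direction as the clustered histones, and their part in the histone difference was not tested. In RNA pooled from many cells, fewer cells in a state and less RNA per cell cannot be told apart.

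Chaperones that assemble new nucleosomes behind the fork had a median of 0.31, with 12 of 15 higher in substate 2 (12 with no scaling) against the same 59.8% and 36.9% of all genes. MCM2, a helicase subunit that also holds H3 and H4, and ASF1B, which hands them on, each had a difference of 0.53. MMS22L had -0.21 and NAP1L1, an H2A and H2B chaperone, -0.07. Genes for deposition of variants had a median of 0.25, with 14 of 18 higher (11 with no scaling). DAXX, a chaperone of H3.3, and DMAP1 each had 0.43, while ATRX, the partner of DAXX, had -0.26 and EP400, a remodeller that installs H2A.Z, had -0.16.

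The 18 genes of histone transcription and stem-loop processing had the lowest median of these lists, 0.16, and 15 were higher in substate 2, against 59.8% of all genes. With no scaling 7 were higher, against 36.9% of all genes. SLBP, which binds the stem-loop, was at 3.31 and 3.58, a difference of 0.27. NPAT, the coactivator of clustered histone genes, had 0.07, CASP8AP2, which works at the same histone locus bodies, 0.07, and HINFP, the factor of the H4 element, 0.12. Of the genes for the U7 particle, which cuts the messenger RNA after the stem-loop, and its partner, LSM10 had 0.36, ZNF473 0.35 and LSM11 -0.09. The lowest were TUT7, a uridyl transferase, at -0.50 and UPF1, which acts in histone messenger RNA decay, at -0.27. None of the 18 reached the clustered median of 0.54.

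**Figure D4:**
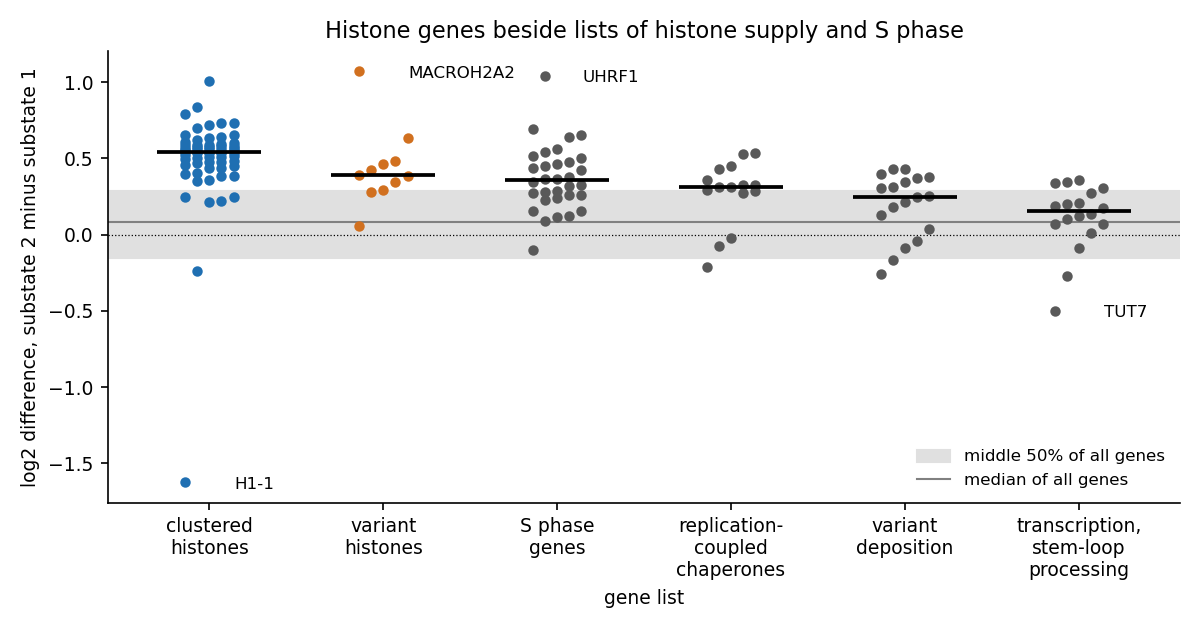
Log2 difference, substate 2 minus substate 1, of each measured gene in the histone classes and in lists of S phase, chaperone, variant deposition and histone transcription and processing genes. Points are genes, bars are medians, the grey band is the middle 50% of all genes and the grey line their median. The medians descend from 0.54 for clustered histones through 0.39 for variants and 0.36 for S phase genes to 0.16 for transcription and stem-loop processing.

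The size of these differences depended on the scaling of the arrays, and their direction mostly did not. Over the scalings tried, the clustered median ranged from 0.35 to 0.58 and the variant median from 0.20 to 0.43, and 61 of the 63 clustered genes were higher under each. With no scaling, where the median of all genes was -0.10, 10 of the 11 variants were higher and H1-7 was at -0.13. H1-1 was between -1.81 and -1.56 under the alternatives.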

How the data were processed

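RNA of 2 cultures was measured on 2 Agilent whole-genome arrays, 1 per substate, on the same slide at different positions. The authors deposited scanner output in which each spot has an intensity, with background subtraction by Feature Extraction 11.5.1.1, and flags for outliers, saturation and spots well above background. The authors also deposited log2 values from GeneSpring, scaled by the 75th percentile of each array. These deposited log2 values differed from those computed here by a constant, and 0 of 58201 probes departed from it by over 0.01.

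Intensities had a floor of 1. Outlier spots were dropped, log2 values were averaged over the spots of each probe, and each array was centred on the 75th percentile of its 58201 non-control probes. A gene's value is the mean over its probes well above background and unsaturated on both arrays. Of these probes, 31104 matched a gene through a RefSeq accession in a table of names. The array was annotated on hg19, so no probe coordinates are given, and promoters come from the first listed start of each symbol on GRCh38.p14. The Z-score is the difference minus the mean of all probes (0.07), divided by their SD (0.63).

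Members and gene lists were chosen with earlier results of these data known. The genes named were all variants (1 is not reported here), the 6 genes with a known polyadenylated form, probes past a rule of size, the 8 highest and 8 lowest clustered genes, 6 set genes of stem-loop processing, and the 2 highest and 2 lowest of each other pathway list. TUT7, UPF1 and ZNF473 were named after their values were seen. Alternatives changed the scaling, the background correction (normexp with an offset of 50 on the median signals), the filter on dim probes, the choice of probe, the membership and the spread behind the Z-score. The steps were tested on simulated data, with planted shifts larger than the class medians and the gap between them. That test does not cover differences as small as these. Python 3.11.15, numpy 2.4.6, pandas 2.3.3, R 4.3.3, limma 3.58.1 and matplotlib 3.10.9 were used.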

Additional observations from a re-analysis of the deposited data

How the results depend on the processing

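No paired analysis was possible because a substate is 1 array and nothing links the cells of both. The gap between the class medians was 0.15 to 0.18 under the 13 alternatives tried, and no class median changed sign. The deposited values, median centring and no scaling shift all differences by a constant, so they could not change the gap. Nor could keeping outlier spots, since no histone spot was one. Among other settings, the gap was 0.18 with loess centring, 0.17 with quantile normalisation, 0.15 with normexp and 0.18 with the brightest probe of a gene. Of the named histone genes followed through the alternatives, H1-7 alone changed sign. The clustered median was 0.44 with loess centring, 0.45 with quantile normalisation, 0.35 with no scaling and 0.46 relative to the median of all genes. The variant median was 0.26, 0.28, 0.20 and 0.31 under the same settings. The median of all genes also fell, from 0.08 in the setting reported here to 0.03 with loess and 0.05 with quantile normalisation. The S phase median was 0.21 with loess, 0.21 with quantile normalisation and 0.17 with no scaling, that of replication-coupled chaperones 0.20, 0.22 and 0.13. The stem-loop processing median was 0.0859 with loess and -0.0315 with no scaling, where the median of all genes was -0.10. The variant deposition median was 0.0615 with no scaling and 0.17 with normexp. No histone probe was at least 2-fold higher under normexp (0) or with no scaling (0), and the log2 difference under normexp was 0.42 for H4C7 and 1.00 for MACROH2A2, just short of 2-fold (0.82 and 0.88 with no scaling). Histone probes past the upper Z-score limit numbered 2 with the median absolute deviation, 3 with the SD of probes measured on both arrays (H3C15, H4C7 and MACROH2A2) and 22 with normexp. Over measured genes, the SD of the difference was 0.28 with normexp in place of 0.38. The Z-score divides by the SD over all probes, which is not given here for normexp. Histone probes past the lower limit numbered 2 with the median absolute deviation, H1-1 and the H1-8 probe near background. The share of all probes past the rules of size under these alternatives is not given here. None of these counts can therefore be set against the whole array. The settings with no scaling, relative to all genes, and without H1-1, H3C11 and H4C7 were chosen after seeing the data. Adding probes by a gene name column was not run, since the scanner files used here hold no such column. Low signal over background limits H4C7, H2AC25, H2AC1, H2BC21, H4C16 and H1-7.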
